A study of Homo sapiens with 6 samples.

Results

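Chromosome 17 was followed through 6 ATAC-seq peak lists of K562 cells, an established line from a human chronic myeloid leukaemia. In ATAC-seq a transposase cuts and tags accessible DNA, so that a peak marks a stretch of open chromatin. All intervals listed on chromosome 17 of the hg19 build were taken, apart from a 350 kb stretch that holds the SLFN gene cluster, and they were placed in 5 Mb bins. The study concerns chromatin remodelling by SLFN11 during replication stress. A line overexpressing wild-type SLFN11 (SLFN11-WT below) and one overexpressing the protein with the E669Q substitution (E669Q) were set against a line with a vector control (vector). Each line was given 1000 nM camptothecin (CPT) for 4 h or DMSO, for a time the labels do not give, so that there were 6 groups of 1 library. With 1 library per group no difference has a replicate check, and no test was made. Bracketed ranges are 95% intervals that cover counting error only and treat peaks as independent. Overexpressed protein may exceed natural levels, and the labels, which call the cells lymphoblasts, do not say how the lines were cloned.

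The SLFN11-WT lists held 224 chromosome 17 intervals with CPT, out of 5562 in all, and 377 of 11651 with DMSO. The E669Q lists held 404 of 12337 with CPT and 233 of 8365 with DMSO. The vector lists held 116 of 5806 with CPT and 94 of 5246 with DMSO. Merged over the lists, these made 595 regions, of 17466 in the genome. Members were chosen by position and by the authors' peak calls, so that the caller's p- and q-values decided which intervals could enter. The weakest member of each library had a −log10 q of 2.00 to 2.05. In the cluster left out, 3 libraries held 1 interval each, near 33894961 to 33895105, with folds of 5.68 in SLFN11-WT with DMSO, 5.05 in E669Q with CPT and 6.99 in vector with DMSO. The nearest member below the cluster lay within 33478107 to 33478320 and was in every library, with folds of 20.01 to 31.1. The nearest above it, from 33914236 to 33914460, was in E669Q with DMSO with a fold of 4.96.

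SLFN11, of the Schlafen family, is recruited to stressed replication forks. The E669Q change lies in its ATPase domain. Camptothecin traps topoisomerase I on DNA, and forks that run into the trapped enzyme can break. Chromosome 17 is one of the most gene-rich human chromosomes. Along its long arm it carries, among others, NF1, ERBB2, TOP2A, BRCA1, the HOXB cluster and SOX9, with gene-poor stretches between them. These names are textbook landmarks on the hg19 map. No interval was assigned to a gene, because no hg19 annotation was used here.

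In the lists as deposited, chromosome 17 was poorer in open intervals than the genome in the vector line and richer in the SLFN11 lines. The SLFN11-WT library held 2.76 intervals per Mb of chromosome 17 with CPT and 4.64 with DMSO, which was 1.53 and 1.23 times the density of its whole list. The E669Q library held 4.98 per Mb with CPT and 2.87 with DMSO, or 1.25 and 1.06 times. The vector library held 1.43 per Mb with CPT and 1.16 with DMSO, or 0.761 and 0.683 times. With each list cut to its 5246 strongest intervals by p-value (matched length), the ratios were 1.53 and 0.966 in the SLFN11-WT line, 0.901 and 0.857 in the E669Q line, and 0.719 and 0.683 in the vector line. SLFN11-WT with CPT was then the one library in which the chromosome was richer than the genome. This depends on the cut, which takes the weak intervals of the longer lists. At matched length chromosome 17 held 2.54% of SLFN11-WT with DMSO and 2.36% of E669Q with CPT. With each of these 2 thinned by calculation to the depth of the other library of its line, the shares were 3.00% and 3.01%.

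Sequencing depth differed between the libraries. It was recovered from the authors' fold and p-value of each peak and is given with vector with DMSO, the shallowest library, set to 1. It was 1.09 in SLFN11-WT with CPT and 1.72 with DMSO, 2.22 in E669Q with CPT and 1.33 with DMSO, and 1.09 in vector with CPT. The SLFN11-WT and vector libraries with CPT were therefore nearly equal in depth, and there the SLFN11-WT list held 224 chromosome 17 intervals against 116 in the vector list. As shares of the lists these were 4.03% and 2.00%, a difference of 2.03 percentage points (1.41 to 2.67). On chromosomes 19, 16 and 11 the SLFN11-WT list held 334, 211 and 326 intervals, against 168, 133 and 350 in the vector list. An excess over vector was thus not particular to chromosome 17. On chromosome 17 the SLFN11-WT count was the higher in 14 of the 17 bins and the lower in 2. Of the 224 intervals, 32.6% (26.5 to 39.1) overlapped the vector list, against 57.5% of all SLFN11-WT intervals with CPT. The vector list held 116 intervals there, so a low share of the 224 follows in large part from the counts. It does not by itself show poorer agreement. Of the 116 vector intervals, 63.8% (54.4 to 72.5) overlapped the SLFN11-WT list, against 55.2% of all vector intervals with CPT.

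**Figure D1:**
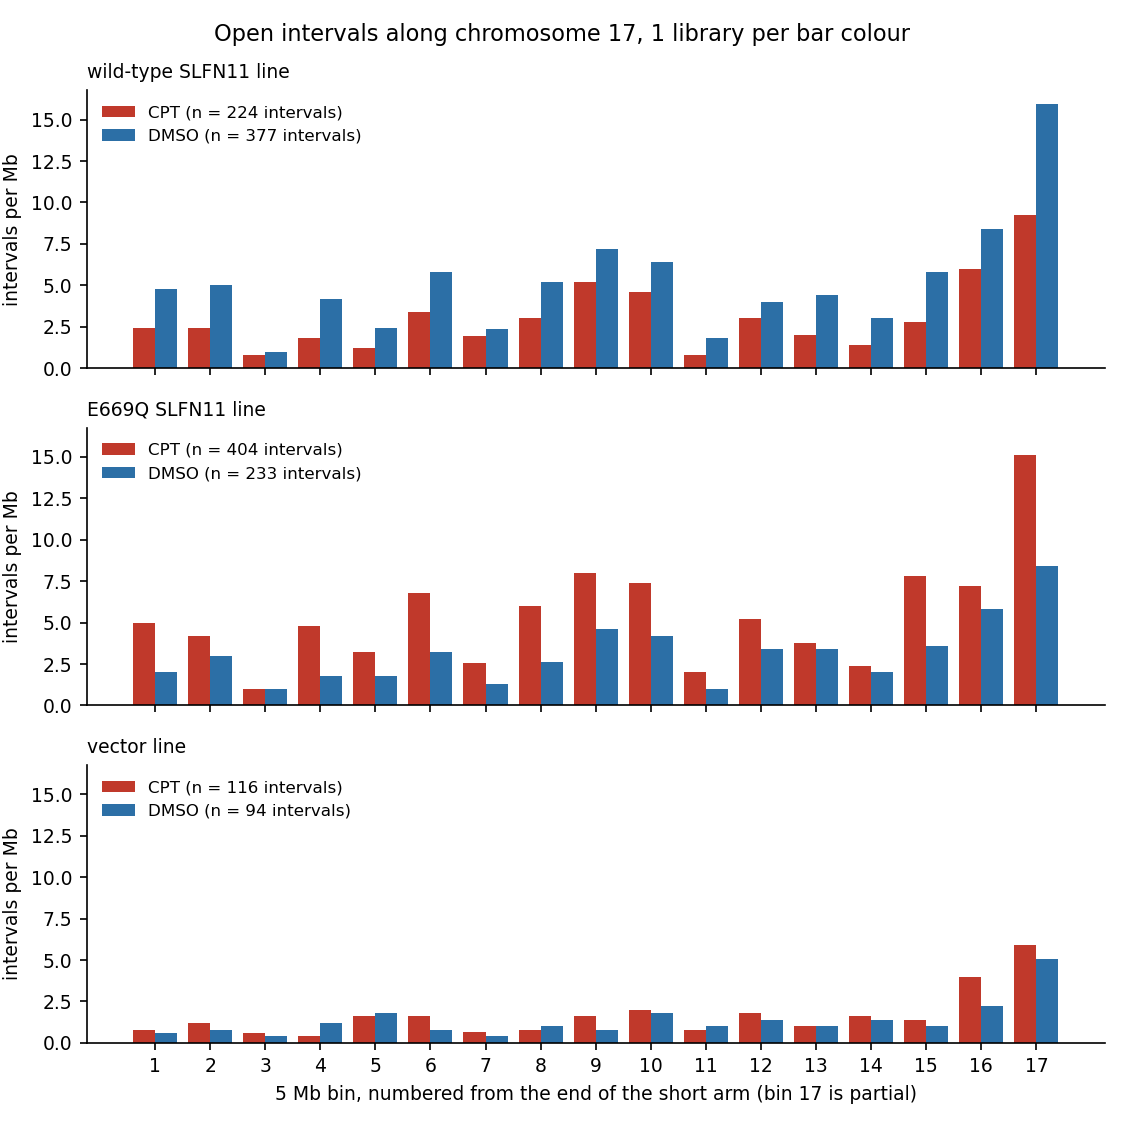
Intervals per Mb of chromosome 17 (y axis, linear) in each 5 Mb bin (x axis, numbered from the end of the short arm), with CPT and DMSO bars side by side for each line, 1 library per bar. In all 6 libraries the partial last bin is the densest, at 5.04 to 15.96 per Mb, and bin 3 lies between 0.4 and 1.0 per Mb.

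Open intervals were unevenly spread along the chromosome. The terminal stretch from 80 to 81.19 Mb was the densest in each of the 6 libraries. It had 9.24 intervals per Mb with CPT and 15.96 with DMSO in the SLFN11-WT line, 15.1 and 8.40 in the E669Q line, and 5.88 and 5.04 in the vector line. The bin before it, from 75 to 80 Mb, ranked next in every library but E669Q with CPT, where it had rank 5. It held 30 intervals with CPT and 42 with DMSO in the SLFN11-WT line, 36 and 29 in the E669Q line, and 20 and 11 in the vector line.

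The next peak of density lay in the middle of the long arm. Between 40 and 45 Mb, the stretch of BRCA1, STAT3 and the megakaryocyte integrin gene ITGA2B, there were 26 and 36 intervals with CPT and DMSO in the SLFN11-WT line. There were 40 and 23 in the E669Q line, and 8 and 4 in the vector line. This bin had rank 2 or 3 in the 4 libraries of the SLFN11 lines, but rank 5 in vector with CPT and rank 12 in vector with DMSO. Between 45 and 50 Mb, which holds the HOXB cluster, the counts were 23 and 32, 37 and 21, and 10 and 9 in the same order of lines and treatments. That bin had rank 3 or 4 in every library. The stretch of ERBB2, TOP2A and the type I keratins, from 35 to 40 Mb, held 15 and 26 intervals in the SLFN11-WT line, 30 and 13 in the E669Q line, and 4 and 5 in the vector line.

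Among the sparse bins, those from 10 to 15 and 50 to 55 Mb had rank 16 or 17 in the 4 libraries of the SLFN11 lines. From 10 to 15 Mb, where the skeletal myosin heavy chain genes lie, 4 and 5 intervals were listed with CPT and DMSO in the SLFN11-WT line, 5 and 5 in the E669Q line and 3 and 2 in the vector line. From 50 to 55 Mb there were 4 and 9 in the SLFN11-WT line, 10 and 5 in the E669Q line and 4 and 5 in the vector line. The longest stretch with no interval in any library, 3.16 Mb from 22.26 to 25.42 Mb, spans the centromere. The next longest was 2.92 Mb from 68.17 to 71.09 Mb, around SOX9, which stands in a gene desert. Others were 2.08 Mb from 31.22 to 33.31 Mb, 1.81 Mb from 8.79 to 10.6 Mb and 1.77 Mb from 49.41 to 51.18 Mb.

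The short arm, taken up to the centromeric stretch, was the sparser arm in every library. It had 1.93 intervals per Mb with CPT and 3.91 with DMSO in the SLFN11-WT line, where the long arm had 3.25 and 5.20. In E669Q cells these were 4.09 and 2.16 on the short arm and 5.61 and 3.32 on the long arm, and in the vector line 1.03 and 1.08 against 1.67 and 1.25. The short arm's share of the chromosome's intervals was 19.2% (14.2 to 25.0) with CPT and 23.1% (18.9 to 27.7) with DMSO in the SLFN11-WT line. It was 22.5% and 20.6% in the E669Q line, and 19.8% and 25.5% in the vector line, and the intervals of CPT and DMSO overlapped in each line.

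Across the 17 bins, densities of the 4 SLFN11-line libraries ranked alike, with Spearman's rho of 0.882 to 0.936 for the 6 pairs. Vector with CPT had rho of 0.616 to 0.791 with these 4 libraries, and vector with DMSO 0.347 to 0.488. The 2 vector libraries had rho of 0.702 with each other. Bins of 1 library share its depth and hold as few as 2 intervals in the vector line, so these values are a description and carry no p.

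Intervals on chromosome 17 were narrower than those of the whole list. In the SLFN11-WT line their median width was 218 bp (198 to 242) with CPT and 250 bp (229 to 271) with DMSO, against 239 and 283 bp for the whole lists. In the E669Q line it was 240 bp (223 to 259) and 225 bp (209 to 240), against 270 and 267 bp. In vector cells it was 194 bp (179 to 210) and 216 bp (195 to 236), against 234 and 244 bp. The interval of the median reached the median of the whole list in SLFN11-WT with CPT alone. Widths ran from 102 to 1258 bp over the 6 libraries.

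**Figure D2:**
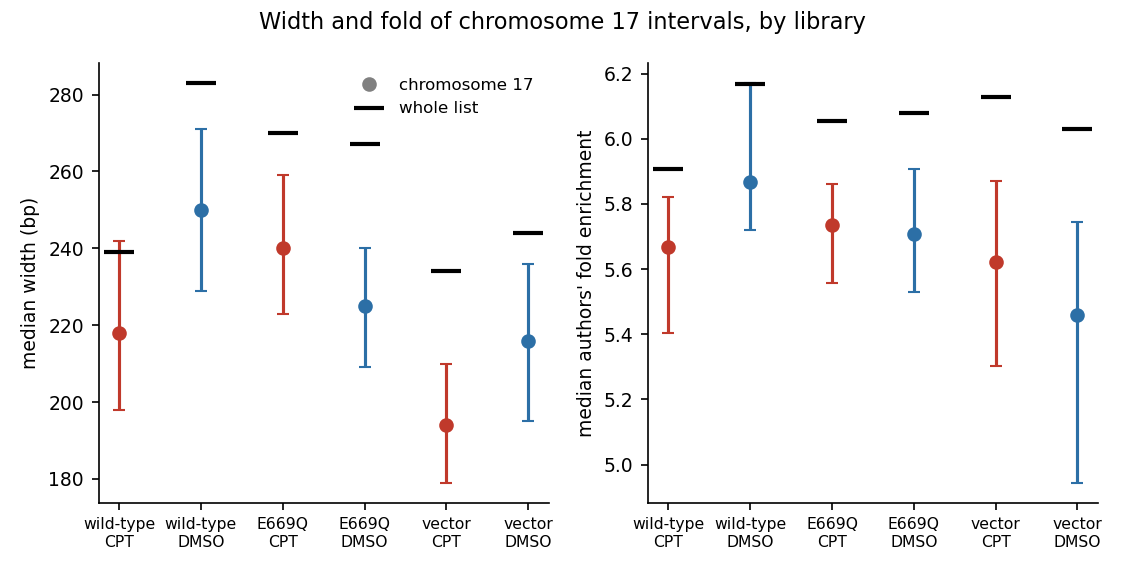
Median width in bp (left) and median authors' fold enrichment (right) of chromosome 17 intervals in each library (points, with 95% order-statistic intervals; red CPT, blue DMSO), with the median of the whole list as a black dash. The axes do not start at 0. All 6 points lie below their dash in both panels.

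Their median fold was also lower in each library. Fold enrichment is the authors' ratio of the signal at a summit to the local background, and was compared only within a list. Its median on chromosome 17 was 5.67 (5.41 to 5.82) with CPT and 5.87 (5.72 to 6.17) with DMSO in the SLFN11-WT line, against 5.91 and 6.17 in the whole lists. It was 5.74 (5.56 to 5.86) and 5.71 (5.53 to 5.91) in the E669Q line, against 6.05 and 6.08. It was 5.62 (5.30 to 5.87) and 5.46 (4.94 to 5.75) in the vector line, against 6.13 and 6.03. The interval reached the median of the whole list in SLFN11-WT with DMSO alone. Ranked by p-value within its own list, the median chromosome 17 interval stood at percentile 39.7 with CPT and 43.2 with DMSO in the SLFN11-WT line, 40.01 and 37.4 in the E669Q line, and 36.3 and 34.9 in the vector line. An even draw from the list would stand at the middle.

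Fewer of them carried several summits. With several summits were 8 of 224 intervals with CPT (3.57%) and 36 of 377 with DMSO (9.55%) in the SLFN11-WT line, against 6.09% and 13.3% of the whole lists. In E669Q cells these were 11.1% and 4.72%, against 15.4% and 9.24%, and in the vector line 2.59% and 2.13%, against 5.98% and 5.79%. Fewer chromosome 17 intervals also had a close neighbour, with 4.26% to 17.1% having one within 10 kb, against 9.86% to 21.6% in the whole lists. In each library the chromosome's value was the lower one.

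Median width and fold also varied among the bins. Outside the bins from 20 to 25 and 30 to 35 Mb, the median fold of a bin lay between 4.95 and 7.32 with CPT and between 5.55 and 6.85 with DMSO in the SLFN11-WT line. It lay between 5.07 and 7.36, and 5.16 and 6.31, in the E669Q line, and between 4.57 and 6.78, and 4.44 and 6.39, in the vector line. The highest medians with CPT came from bins of 4, 5 and 2 intervals in the SLFN11-WT, E669Q and vector lines. Median widths were between 148 and 489 bp. The widest were 489 bp over 4 intervals between 50 and 55 Mb in SLFN11-WT with CPT and 414 bp over 5 intervals between 10 and 15 Mb in E669Q with CPT.

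The 2 bins set aside there hold places of very high signal. The interval from 22020537 to 22020911 on chromosome 17, close to the centromere, had the highest −log10 p of all intervals in each of the 6 lists, 3708 and 5595 with CPT and DMSO in the SLFN11-WT line, 5654 and 4645 in the E669Q line, and 4383 and 3784 in the vector line. Its fold was 47.9 to 50.4. Around it, from 21903313 to 22261642, lay 5 to 11 intervals per library. Apart from the top interval, they sat on a local background with a median of 18.5 to 27.5 times the genome-wide level, against 1.71 to 2.35 times for the median interval of the whole chromosome. Bin medians of the background between 20 and 25 Mb were thus 8.12 to 22.7 times the genome level. Pericentromeric repeats are known as places where reads pile up in sequencing assays, and whether these intervals mark open chromatin was not tested.

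Over the whole chromosome, intervals on such a background were rarer than in the whole lists. A local background of at least 5 times the genome level was found for 4.46% of chromosome 17 intervals with CPT and 4.24% with DMSO in the SLFN11-WT line, against 10.8% and 8.57% of the whole lists. It was found for 3.71% and 4.29% in the E669Q line, against 6.96% and 9.25%, and for 7.76% and 8.51% in the vector line, against 8.16% and 9.67%.

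Few chromosome 17 regions were found in every library. Of the 595 regions 30 (5.04%) were in all 6 lists, against 12.3% of the 17466 regions of the genome, and 239 (40.2%) were in 1 list alone, against 38.1%. Put the other way, chromosome 17 held 3.41% of all regions and 1.40% (0.944 to 1.99) of those in all 6 lists. A region in all 6 lists has to be in both vector lists, where chromosome 17 held 2.00% with CPT and 1.79% with DMSO. Its low share of such regions is therefore not separate from its low share of the vector lists. Chromosomes 19, 16 and 11 held 1.86%, 1.91% and 6.10% of those in all 6 lists, against 4.92%, 3.30% and 5.16% of all regions. Of the 30, the 75 to 80 Mb bin held 6, and the bins from 20 to 25 and 45 to 50 Mb held 4 each. Their median percentile by p-value was 66.0 with CPT and 77.6 with DMSO in the SLFN11-WT line, 80.7 and 60.02 in the E669Q line, and 54.5 and 56.2 in the vector line.

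Of the 5 that ranked highest, the first was the pericentromeric interval, for which no background could be solved, and the other 4 sat on raised backgrounds. Next came the region from 31149428 to 31149889, with folds of 17.1 and 20.5 with CPT and DMSO in the SLFN11-WT line, 19.7 and 18.9 in the E669Q line and 15.6 and 20.01 in the vector line. Its local background was up to 34.8 times the genome level. The region from 33478107 to 33478320 had 22.2 and 30.8 in the SLFN11-WT line, 29.7 and 31.1 in the E669Q line and 20.01 and 22.7 in the vector line, on a background of 8.43 to 19.5 times. The region from 51183122 to 51183746 had 11.3 and 13.2, 21.4 and 10.9, and 10.6 and 12.2 in the same order, on 28.8 to 43.9 times. The region from 22252981 to 22253358 had 9.26 and 8.24, 8.54 and 7.41, and 8.90 and 8.01 in that order, on 22.3 to 40.3 times. Within each list all 5 stood above nearly all other intervals by p-value, and folds of different libraries are not ranked here.

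Chromosome 17 intervals were fewer with CPT in the SLFN11-WT line and more numerous with CPT in the other 2 lines. The CPT over DMSO ratio of counts was 0.594 in the SLFN11-WT line, 1.73 in the E669Q line and 1.23 in the vector line. The ratios for the whole lists were 0.477, 1.47 and 1.11, so that in each line the chromosome's ratio was the higher one. Depth went the same way as the counts in all 3 lines. In a calculation, the deeper list of each line was thinned to the depth of the other. The chromosome 17 counts were then 224 with CPT and 242 expected with DMSO in the SLFN11-WT line. They were 260 expected with CPT and 233 with DMSO in the E669Q line, and 104 expected and 94 in the vector line. The part of depth in the counts was not tested further.

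As a share of the list, chromosome 17 was higher with CPT in each line. In SLFN11-WT cells the share was 4.03% (3.53 to 4.58) with CPT and 3.24% (2.92 to 3.57) with DMSO, a difference of 0.792 points (0.20 to 1.42). In the E669Q line it was 3.27% (2.97 to 3.60) and 2.79% (2.44 to 3.16), a difference of 0.489 points (0.00927 to 0.956). In the vector line it was 2.00% (1.65 to 2.39) and 1.79% (1.45 to 2.19), a difference of 0.206 points (−0.309 to 0.716). The difference thus exceeded counting error in the SLFN11 lines and not in the vector line, and whether the lines differ in it was not tested. In the SLFN11-WT, E669Q and vector lines the difference on chromosome 19 was 1.49 (0.778 to 2.24), 0.115 (−0.531 to 0.748) and 0.644 (0.0507 to 1.24) points. On chromosome 16 it was 0.275, 0.00766 and 0.194. On chromosome 11 it was 0.351, −0.0872 and 0.538. All intervals of chromosomes 16 and 11 held 0.

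Evening out the lists gave other sizes. At matched length, chromosome 17 held 211 intervals with CPT and 133 with DMSO in the SLFN11-WT line, or 4.02% and 2.54%. It held 124 and 118 in the E669Q line (2.36% and 2.25%), and 99 and 94 in the vector line (1.89% and 1.79%). The differences were 1.49 points (0.807 to 2.17) in the SLFN11-WT line, 0.114 (−0.464 to 0.693) in the E669Q line and 0.0953 (−0.423 to 0.615) in the vector line. At matched length the difference thus exceeded counting error in the SLFN11-WT line alone. In that line chromosome 19 differed by 2.48 points (1.66 to 3.3) and chromosome 16 by 0.76 (0.060 to 1.47). Chromosome 11 differed by 0.095 (−0.81 to 1.00). Such a cut takes the weak intervals of the long lists, where most chromosome 17 intervals stand by their percentiles. With the deeper list of each line thinned to the depth of the other by calculation, the CPT minus DMSO difference was 1.02 points in the SLFN11-WT line, 0.223 in the E669Q line and 0.137 in the vector line. In the SLFN11-WT line the DMSO library would then be expected to hold 242 chromosome 17 intervals of 8057, or 3.00%, against the 224 of 5562 seen with CPT.

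**Figure D3:**
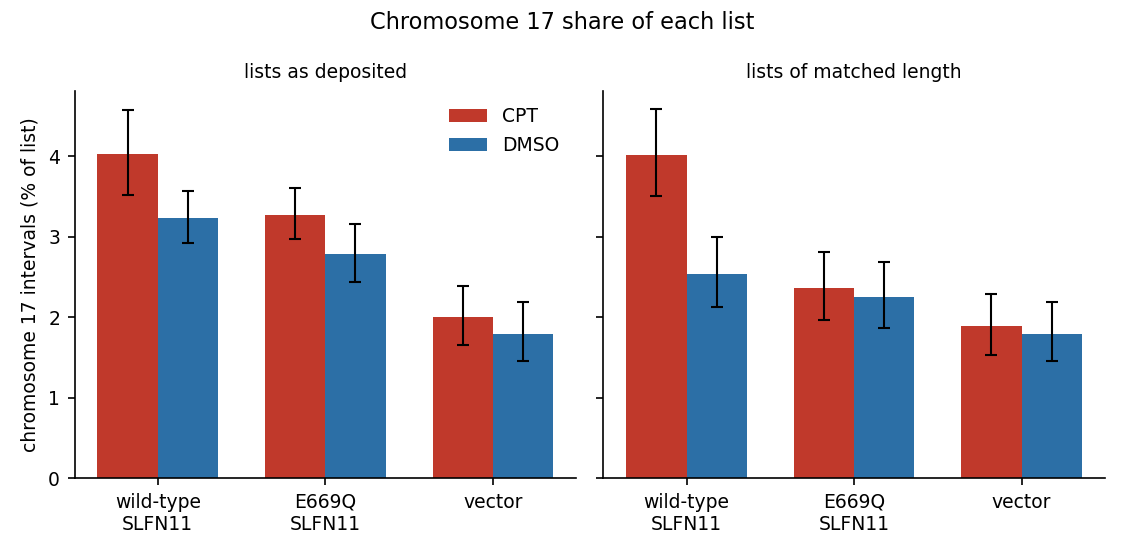
Chromosome 17 intervals as a percentage of each list (y axis from 0) with CPT (red) and DMSO (blue) in each line, for the lists as deposited (left) and for the 5246 strongest intervals of each list (right); bars are single libraries and error bars are Clopper-Pearson 95% intervals for counting error. The SLFN11-WT library with CPT is highest in both panels, at 4.03% and 4.02%.

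More of the chromosome 17 intervals with CPT than of all intervals with CPT were missing from the DMSO list of their line. In SLFN11-WT cells, 68 of 224 intervals with CPT had no overlap in the DMSO list and are called gained. That was 30.4% (24.4 to 36.8), against 15.1% of all intervals of the list. In E669Q cells 224 of 404 were gained, or 55.4% (50.5 to 60.4), against 45.2% of all. In vector cells 75 of 116 were gained, or 64.7% (55.2 to 73.3), against 45.1% of all. In each line the interval for chromosome 17 lay above the value of the whole list. On chromosome 19 the gained share was 21.3%, 42.9% and 72.6% in the same order of lines. On chromosome 16 it was 15.6%, 47.55% and 61.65%, and on chromosome 11 it was 15.3%, 43.9% and 42.9%. At matched length the gained share was 59.2% (52.3 to 65.9) in the SLFN11-WT line against 38.6% of all, 50.8% (41.7 to 59.9) in the E669Q line against 37.2%, and 62.6% (52.3 to 72.2) in the vector line against 42.8%. With an overlap of 50% of both intervals required, it was 54.0% (47.3 to 60.7) against 46.5%, 70.05% (65.3 to 74.5) against 62.7% and 75% (66.1 to 82.6) against 61.2% in that order of lines. The interval for chromosome 17 stayed above the value of the whole list in each of these. At −log10 q of at least 5 it did so in the SLFN11 lines. There the vector interval, 66.7% (49.8 to 80.9) over 39 intervals, held the 50% of all. At matched length chromosomes 19, 16 and 11 had gained shares of 59.9%, 50.7% and 40.1% in the SLFN11-WT line. In the E669Q line they had 40.1%, 50.6% and 38.2%, and in the vector line 70.95%, 59.65% and 40.4%. A gained share above that of the whole list was thus not particular to chromosome 17.

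Lost shares were nearer to those of the whole list in the SLFN11 lines, in the lists as deposited, and higher in the vector line. In SLFN11-WT cells 219 of 377 DMSO intervals had no overlap in the CPT list, or 58.1% (52.9 to 63.1), against 59.5% of all. In the E669Q line 52 of 233 were lost, or 22.3% (17.1 to 28.2), against 19.0% of all. In the vector line 53 of 94 were lost, or 56.4% (45.8 to 66.6), against 39.5% of all, the one line whose interval excluded the value of the whole list. At matched length losses were 35.3% (27.3 to 44.1) in the SLFN11-WT line against 39.2% of all, 48.3% (39.0 to 57.7) in the E669Q line against 36.9%, and 60.6% (50.02 to 70.6) in the vector line against 42.8%. There the E669Q interval also lay above the value of the whole list. With an overlap of 50% of both intervals required, losses were 72.7% (67.9 to 77.1) against 74.4%, 48.1% (41.5 to 54.7) against 45.0% and 69.1% (58.8 to 78.3) against 57.1% in that order, and the vector line alone lay above the whole list. In the vector lists as deposited, chromosomes 19 and 16 lost 61.0% (51.6 to 69.9) and 52.7% (43.0 to 62.3), and chromosome 11 lost 30.2% (25.0 to 35.9). A lost share above the whole vector list was thus not particular to chromosome 17.

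**Figure D4:**
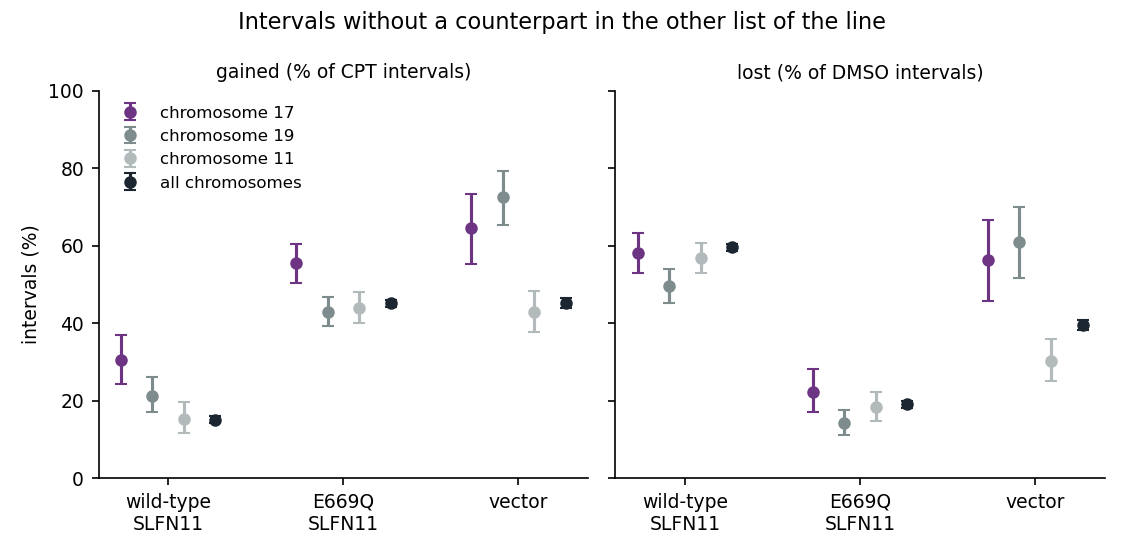
Percentage of CPT intervals without overlap in the DMSO list of the line (left, gained) and of DMSO intervals without overlap in the CPT list (right, lost), for chromosomes 17, 19 and 11 and for all chromosomes; points are single comparisons of 2 libraries and bars are Clopper-Pearson 95% intervals. Chromosome 17 lies above all chromosomes for gains in each line, at 30.4% against 15.1%, 55.4% against 45.2% and 64.7% against 45.1%.

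Gained and lost intervals were weaker than those found with both treatments, and the part of this in the shares above was not tested. For the SLFN11-WT line the median fold was 4.93 in gained intervals, with a median of 6 reads over the summit (the pileup). Chromosome 17 intervals of the same list found in both had 5.88 and 9 reads. Lost intervals of that line had 5.48 and 8 reads, against 6.55 and 11 reads for those found in both. E669Q cells gave 5.38 and 9 reads for gained against 6.09 and 13 reads, and 5.40 and 7 reads for lost against 5.81 and 8 reads. Vector cells gave 5.48 and 7 reads for gained against 5.92 and 8 reads, and 4.92 and 6 reads for lost against 5.90 and 8 reads.

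Along the chromosome the differences were spread over the bins. In the lists as deposited, counts were lower with CPT in all 17 bins of the SLFN11-WT line. They were higher in 16 bins of the E669Q line, with 1 equal, and higher in 12, lower in 4 and equal in 1 of the vector line. Matched in length, the SLFN11-WT lists had more intervals with CPT in 13 bins, fewer in 3 and as many in 1. The E669Q lists then had more in 8, fewer in 7 and as many in 2, and the vector lists more in 8, fewer in 5 and as many in 4. The largest differences in the SLFN11-WT line were 23 against 11 between 40 and 45 Mb, 21 against 11 between 45 and 50 Mb, 14 against 5 between 35 and 40 Mb and, in the bins from 0 to 5, 25 to 30, 70 to 75 and 75 to 80 Mb, 12 against 5, 16 against 9, 14 against 7 and 29 against 22. No bin differed in its share of the chromosome's intervals beyond counting error, in any of the 51 pairs of bin and line, as deposited or at matched length. The bins held 2 to 42 intervals in the lists as deposited, and the size of shift that such counts could show was not computed.

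Intervals found with both treatments were also compared by signal. Summit pileups, counted in reads, were divided by depth, and the median log2 difference of CPT minus DMSO was taken. In SLFN11-WT cells it was 0.28 (0.17 to 0.34) over 155 chromosome 17 intervals, 109 of which were higher with CPT. Over all other chromosomes it was −0.042 (−0.052 to −0.019). In E669Q cells it was −0.097 (−0.22 to −0.034) over 178 intervals, against −0.25 (−0.27 to −0.24), and in the vector line 0.040 (−0.12 to 0.24) over 40, against −0.038 (−0.12 to −0.0053). Chromosome 17 thus stood above the rest of its libraries in both SLFN11 lines, with intervals that did not overlap, while in the vector line they overlapped. In the SLFN11-WT and E669Q lines chromosome 19 had 0.30 and −0.15, chromosome 16 had 0.14 and −0.11, and chromosome 11 had −0.019 and −0.22. Only intervals called in both lists enter here, and the part of that selection in the differences was not tested. In the SLFN11-WT line the chromosome 17 median was above 0 in 16 of the 17 bins and below 0 between 50 and 55 Mb alone (−0.17 over 4 intervals). In the E669Q line it was above 0 in 6 bins and below 0 in 11, and in the vector line above 0 in 8 of the 16 bins with such intervals and below 0 in 8.

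The local background around these intervals, as the peak caller's p-value and fold imply it, differed as well. Relative to the genome level it was higher with CPT by 0.20 on the log2 scale (0.15 to 0.28) in the SLFN11-WT line and by 0.18 (0.12 to 0.25) in the E669Q line. On the other chromosomes the median differences were −0.13 and −0.0019. In vector cells it was −0.0056 (−0.073 to 0.12) on chromosome 17 and −0.054 elsewhere, while on chromosome 19 it was 0.14 (0.060 to 0.25). Chromosome 19 went like chromosome 17 in the SLFN11 lines, with 0.34 and 0.17, and chromosome 16 with 0.13 and 0.15. Chromosome 11, also gene-rich, did not, with −0.11 and 0.027. The part of the background in the pileup differences was not tested.

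**Figure D5:**
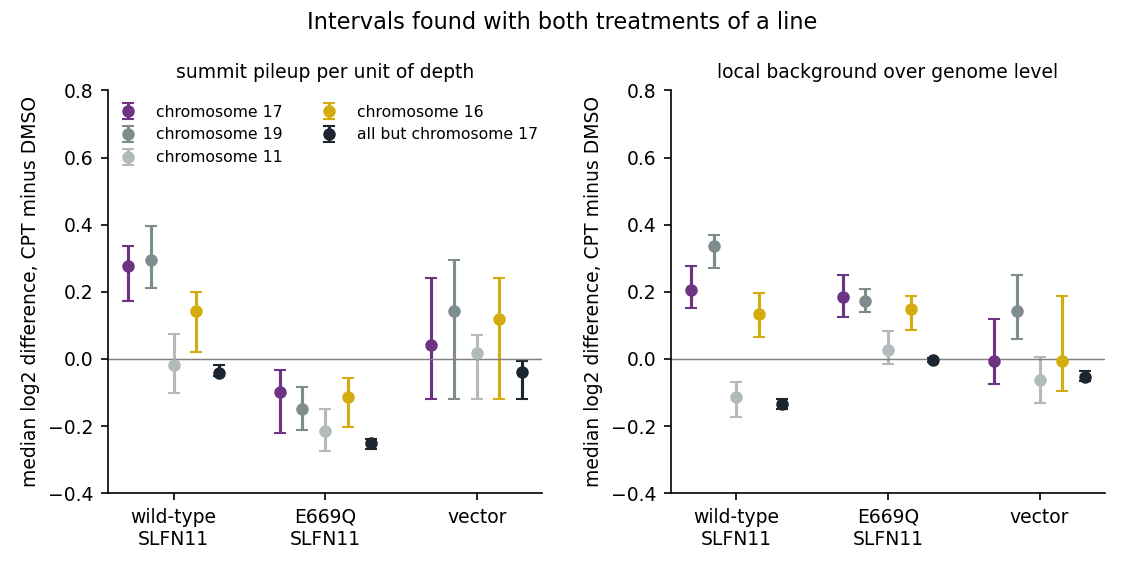
Median log2 difference, CPT minus DMSO, of depth-normalised summit pileup (left) and of local background relative to the genome level (right) for intervals found with both treatments of a line, by chromosome; bars are 95% order-statistic intervals. In SLFN11-WT cells chromosomes 17 and 19 lie above 0 in both panels, at 0.28 and 0.30 on the left and 0.20 and 0.34 on the right.

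The strongest gained intervals were modest in size. In the SLFN11-WT line those over 150 bp wide with the highest fold lay from 80606149 to 80606425 (fold 8.51, pileup of 13 reads), from 3796369 to 3796529 (7.22, 11 reads) and from 42200846 to 42201011 (6.76, 9 reads). The first and second were in the E669Q list with CPT too, with folds of 4.31 and 5.95, and the last was in no other list. In the E669Q line they lay from 26220271 to 26220444 (9.23), from 80674339 to 80674608 (8.55) and from 40075264 to 40075481 (8.13). All of these were in the SLFN11-WT list with DMSO, the second and the last also in the one with CPT, and the last in the vector list with CPT too. In the vector line they lay from 76183208 to 76183418 (9.43), from 74261066 to 74261308 (7.75) and from 56595289 to 56595627 (7.31), and each was in both SLFN11-WT lists and in the E669Q list with CPT.

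Most of the strongest lost intervals were listed in another line. In SLFN11-WT cells they lay from 57232590 to 57233057 (fold 9.57), from 36886355 to 36886595 (9.40) and from 26645818 to 26646165 (8.43). The first and the last were in all 4 lists of the other lines, and the middle one was in the E669Q list with CPT. In E669Q cells they lay from 53315881 to 53316103 (8.19), which was in no other list, and from 44439000 to 44439319 (7.70) and 36981431 to 36981728 (7.64), which were also in the SLFN11-WT list with DMSO. In vector cells they lay from 19091351 to 19091521 (7.37), from 58677112 to 58677459 (7.29) and from 19015270 to 19015660 (6.72), each in at least 3 lists of the SLFN11 lines. Of all lost chromosome 17 intervals, 138 of 219 in the SLFN11-WT line (63.0%), 26 of 52 in the E669Q line (50%) and 44 of 53 in the vector line (83.0%) overlapped an interval of another line. Over all chromosomes these shares were 67.9%, 49.7% and 82.9%, each inside the interval of the chromosome 17 value. Of the gained chromosome 17 intervals, 38 of 68 (55.9%), 136 of 224 (60.7%) and 70 of 75 (93.3%) overlapped another line, in the same order of lines. Over all chromosomes the gained shares were 60.7%, 53.5% and 86.6%. The E669Q interval on chromosome 17 (53.99 to 67.15) alone excluded the value of all chromosomes.

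Regions that went with CPT in every line were rare in the whole genome. On chromosome 17 no region was in the 3 CPT lists and in no DMSO list, against 26 of 17466 in the genome (0.149%). In the 3 DMSO lists and in no CPT list were 2 of 595 (0.336%), against 51 in the genome (0.292%), so that both counts were near the share of the genome. They lay from 79603842 to 79604183, with folds of 7.07, 4.58 and 4.92 in the SLFN11-WT, E669Q and vector lines, and from 11924037 to 11924391, with 4.86, 5.96 and 4.10.

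Regions listed with CPT in both SLFN11 lines and nowhere else lay on chromosome 17 more often than its share of all regions. Of 127 such regions in the genome 18 were on chromosome 17, or 14.2% (8.62 to 21.5), where the chromosome held 3.41% of all regions. It was the highest raw share of any chromosome, ahead of chromosome 1 with 12.6% and chromosome 19 with 9.45%. Chromosome 19 held 4.92% of all regions, and the ranking does not allow for how many regions each chromosome holds. Of the regions in 2 lists of any kind, chromosome 17 held 133 of 2833. The 18 lay in 10 of the bins, with 3 each in those from 0 to 5, 40 to 45 and 55 to 60 Mb. They were weak, with folds of 4.06 to 8.51 (median 5.51) in the SLFN11-WT list and 4.31 to 6.79 (median 5.45) in the E669Q list, and with median pileups of 7 and 9 reads. Examples are the region from 3796369 to 3796773 (7.22 and 5.95), the one from 57442830 to 57443153 (6.60 and 6.13) and the one from 38443885 to 38444297 (5.82 and 6.09). This set was formed after the data had been seen.

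Every list of the SLFN11 lines but no vector list held 34 chromosome 17 regions of 540 in the genome, or 6.30% (4.40 to 8.69). Chromosomes 19, 16 and 11 held 15.4%, 6.85% and 5.37% of the 540, against 4.92%, 3.30% and 5.16% of all regions. On chromosome 17 the bin from 45 to 50 Mb held 7, and those from 25 to 30 and 40 to 45 Mb held 5 each. The region with the highest lowest fold was that from 41466053 to 41466412, with 8.76 and 6.32 with CPT and DMSO in the SLFN11-WT line and 9.19 and 6.45 in the E669Q line. It was followed by the regions from 62971407 to 62972120, 75136579 to 75137267, 66031454 to 66031930 and 41400444 to 41401149, with folds between 5.62 and 7.88. Missing from the SLFN11-WT list with CPT alone were 4 chromosome 17 regions of 527 in the genome, or 0.759% (0.207 to 1.93), below its 3.41% of all regions. Such regions, too, have to be in both vector lists. Chromosomes 19 and 16 were also below their shares of all regions, with 1.14% and 0.949% of the 527. Chromosome 11 was not, with 5.88%.

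The SLFN11 lines also exceeded the vector line with DMSO. There the chromosome 17 share was higher by 1.44 points (0.944 to 1.91) in SLFN11-WT and by 0.994 points (0.477 to 1.49) in E669Q than in vector. At matched length these differences were 0.743 points (0.186 to 1.31) for the wild type and 0.458 points (−0.0828 to 1.00) for E669Q. With CPT at matched length SLFN11-WT stood 2.14 points (1.49 to 2.79) above vector, and E669Q 0.477 points (−0.0771 to 1.03) above it. For E669Q neither matched comparison thus exceeded counting error. As deposited with DMSO, chromosome 19 held 4.5%, 5.6% and 2.2% of the SLFN11-WT, E669Q and vector lists. Chromosome 16 held 3.5%, 3.3% and 2.1% of them, and chromosome 11 held 5.5%, 5.1% and 5.5%.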

How the data were processed

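Each library came as 1 peak list, with no pooling of libraries, on hg19. MACS2 2.1.2, Picard 2.9.2, SAMtools 1.8, Bowtie2 2.2.6 and Trimmomatic 0.39 are listed, without roles or settings, per the submitters' processing notes. Read shifting, the treatment of duplicates and read numbers are not given in the sources used here. Deposited values of each peak are a fold enrichment (ratio) at each summit, a −log10 p and a −log10 q. The deposited score, the whole part of 10 times that −log10 q in every entry, was not used further.

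Entries sharing coordinates were counted as 1 interval, described by its strongest summit and placed by its midpoint; coordinates are 1-based. Intervals overlapping by at least 1 bp were called shared. Under MACS2's scoring with 1 added to both terms, a whole-number summit pileup with its local background reproduced fold and −log10 p to 0.001 in 98.7% to 99.3% of entries; the lowest background over its step gave depth. The top interval near the centromere had no such solution. Shares carry Clopper-Pearson, differences Newcombe and medians order-statistic 95% intervals, which cover counting error only. No test was made, with 1 library per group.

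The chromosome, lists and comparisons were chosen with earlier results of these data known. Named regions, over 150 bp wide, are per line the 3 gained and 3 lost intervals of highest fold, the 5 regions in all 6 lists of highest median percentile, all regions in 1 treatment alone over the 3 lines, and the 5 regions of the SLFN11 lines alone with the highest lowest fold. Other regions were named after their values were seen. Scripts were tested on simulated data (matplotlib 3.10.9, scipy 1.17.1, pandas 2.3.3, numpy 2.4.6, Python 3.11.15). Gene annotation and sequence of hg19 were not used here.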

Additional observations from a re-analysis of the deposited data

Results flagged for a closer look

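The number of chromosome 17 intervals with CPT over DMSO was 0.594 in the SLFN11-WT line, against 1.73 in the E669Q line and 1.23 in the vector line. It drew attention because the lines moved in opposite directions. The whole lists moved in the same directions, with ratios of 0.477, 1.475 and 1.11, so the movement was not particular to chromosome 17. The difference between lines was not tested (1 library a group). Relative depth was 1.09 with CPT and 1.72 with DMSO in the SLFN11-WT line. It was 2.22 and 1.33 in the E669Q line, and 1.09 and 1 in the vector line. With the deeper list thinned to the depth of the other by calculation, the SLFN11-WT counts were 224 with CPT and 242 expected with DMSO. They were 260 expected and 233 in the E669Q line, and 104 expected and 94 in the vector line. The part of depth in the ratios was not tested further.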

How the results depend on the processing

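The chromosome 17 share was higher with CPT in each line under all 8 alternatives tried, and 23 of those 24 values stayed within the counting interval of the value reported. The exception was the SLFN11-WT line at matched length, with 1.49 points in place of 0.792. Values of the other alternatives ran from 0.366 to 1.02 points in the SLFN11-WT line, from 0.114 to 0.79 in the E669Q line and from 0.0322 to 0.427 in the vector line. Staying within the counting interval does not show that a value exceeds counting error. At −log10 q of at least 5 the SLFN11-WT difference was 0.366 points, from 80 of 2532 intervals with CPT and 202 of 7232 with DMSO. For E669Q it was 0.79 points, from 215 of 7806 and 90 of 4581. No interval is given for either.

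Gained and lost shares moved more often: 5 gained values left their counting interval and 13 did not, and 8 lost values did and 10 did not. With an overlap of 50% of both intervals, gains were 54% in the SLFN11-WT, 70% in the E669Q and 75% in the vector line, against 46.5%, 62.7% and 61.2% of all intervals. Losses were 72.7%, 48.1% and 69.1%, against 74.4%, 45.0% and 57.1%. At matched length SLFN11-WT gains were 59.2% against 38.6%, SLFN11-WT losses 35.3% against 39.2% and E669Q losses 48.3% against 36.9%. At −log10 q of at least 5 SLFN11-WT losses were 70.3% against 70.2%, E669Q gains 70.2% against 53.3% and E669Q losses 28.9% against 20.2%. Without intervals of 150 bp or less E669Q losses were 30.3% against 21.4%. The cause of these shifts was not tested.

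The largest share of a whole 5 Mb bin was 10.3% in place of 17.2% in vector with CPT with bins shifted by 2.5 Mb. At matched length it was 16.5% in place of 11.1% in SLFN11-WT with DMSO, 13.7% in place of 9.90% in E669Q with CPT and 19.5% in place of 12.4% in E669Q with DMSO. The median fold over that of the list in E669Q with CPT was 0.975 at −log10 q of at least 5 and 0.985 at matched length, in place of 0.947. The other 22 width and fold values stayed within their intervals. Leaving out intervals on a background of 5 times the genome level or more, and the calculated thinning, were chosen after seeing the data. No paired analysis was possible because each group is 1 library with no replicate number to pair by, and the 3 lines differ in genotype and are not replicates of each other. Median summit pileups on chromosome 17 were 6 to 10 reads.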
